A study of Mus musculus with 9 samples.

Results

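High-density lipoprotein nanoparticles (HDL NPs) given alongside extracellular vesicles (EVs) were compared with the same EVs alone, across all genes of CD11b+ bone marrow cells. The comparison takes 6 of the 9 libraries of the study, 3 from mice given EnzR EVs + HDL NPs and 3 from mice given EnzR EVs, and it covers the 12553 of 23337 counted genes that passed a filter on low counts. EnzR EVs are vesicles released by CWR-R1 prostate cancer cells that had become resistant to the antiandrogen enzalutamide. All mice were male C57BL/6, and each library came from 1 mouse. The EnzR EV group received 10 µg of EV protein in 100 µl by tail vein on days 1, 3 and 5. The EnzR EV + HDL NP group received the same EVs on the same days and, on days 0, 2 and 4, 100 µl of HDL NPs, at 1 µM by the sample labels (the study's methods give a higher concentration). The control group received 100 µl of PBS on days 1, 3 and 5, and its 3 libraries enter the fit and serve as a reference level. These libraries hold no group with HDL NPs but no EVs, and none with a vehicle on days 0, 2 and 4, so HDL NPs acting on the cells themselves, HDL NPs acting on the EVs and the extra injections cannot be told apart.

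HDL NPs are synthetic particles with a gold core, apolipoprotein A-I and phospholipids. They bind the scavenger receptor SR-B1, the product of Scarb1, and lower the cholesterol of the cells they bind; the question of the comparison is whether they alter the response of marrow cells to EnzR EVs. Cells low in cholesterol activate SREBP2 and with it the genes of sterol synthesis, while oxysterols act through LXR on efflux transporters such as Abca1 and Abcg1. CD11b, encoded by Itgam, marks neutrophils, monocytes, macrophages and their maturing precursors in marrow. Thbs1 encodes thrombospondin-1, a matrix glycoprotein that inhibits angiogenesis.

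The libraries differed in depth and in composition. Total counts were 2575776 to 18110561 after EnzR EVs and 13231038 to 16611934 with HDL NPs added. Rn45s, the ribosomal RNA precursor gene that rRNA depletion should remove, took 42.7%, 1.15% and 14.2% of the counts of the EnzR EV libraries, and 0.763%, 0.657% and 2.87% with HDL NPs. EnzR EV replicate 1 was the shallowest library and stood apart, and across genes its log2 counts correlated with those of any other library at 0.919 or less. Main values below are from all 9 libraries. Beside them stand values without EnzR EV replicate 1, and values in the 6 libraries with under 5% of counts on Rn45s (called low-Rn45s), where the EnzR EV group is replicate 2 alone and is assumed to vary like the other groups. Levels are counts scaled to CPM with TMM factors, and all differences are log2 fold changes of EnzR EVs + HDL NPs against EnzR EVs. The defining gene of the sort was high in all libraries: Itgam stood at 1458, 1876 and 1707 CPM after EnzR EVs and at 1581, 2006 and 1848 CPM with HDL NPs. The groups overlapped, and the log2 fold change was 0.11, and −0.05 in the low-Rn45s libraries.

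**Figure D1:**
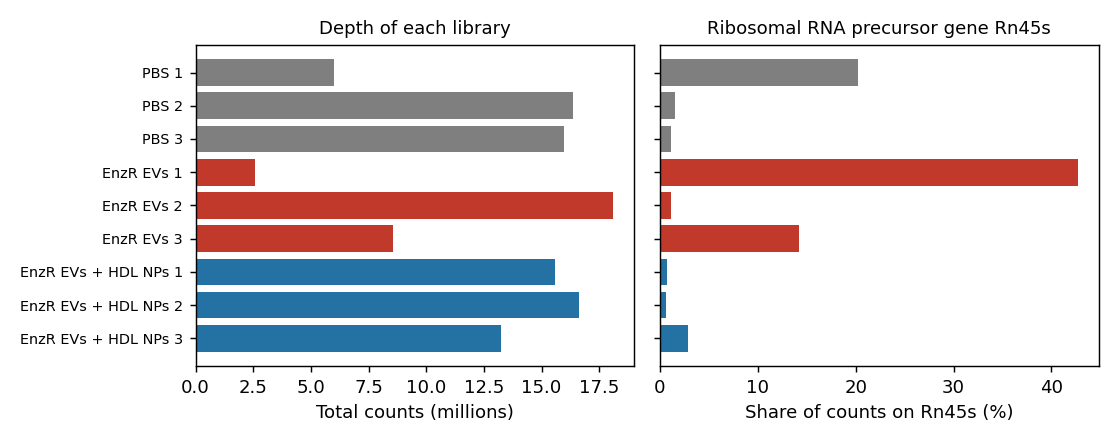
Total counts (left) and percent of counts on Rn45s (right) for each of the 9 libraries, coloured by group. EnzR EV replicate 1 had 2575776 counts with 42.7% on Rn45s, while the 3 libraries with HDL NPs had at least 13231038 counts and at most 2.87% on Rn45s.

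No gene passed the adjusted threshold of 0.05 with edgeR's quasi-likelihood test and Benjamini-Hochberg adjustment (0 of 12553, 0%). The lowest adjusted edgeR p was 0.461, and 1953 genes shared it. Before adjustment, 450 genes (3.58%) were higher and 875 genes (6.97%) lower with HDL NPs at an edgeR p under 0.05. Without EnzR EV replicate 1 these counts were 320 (2.52%) and 339 (2.67%), in the low-Rn45s libraries 281 and 266, and with scaling by library size only 615 and 293, so the excess of lower genes shrank in the first of these fits and reversed in the other 2. The mice with HDL NPs were all above the EnzR EV mice for 1128 genes (8.99%) and all below them for 1077 genes (8.58%). DESeq2, the tool named in the study's methods, called 1 of 12550 genes (0.00797%) on the same 9 libraries, Tspo, and 27 genes when fitted to the 6 libraries of the comparison alone, 4 higher and 23 lower. The count depended on how the uneven libraries were weighted. limma's voom with sample quality weights, which gives less weight to libraries that scatter more, called 653 genes, 266 higher and 387 lower, against 0 by voom without them. By this weighted voom test Lipg had an adjusted p of 0.00316. All the other called genes lay just under the threshold, at adjusted p from 0.0474 to 0.0499, many of them tied. In a fit to the low-Rn45s libraries edgeR called 1 gene, Lipg. For one gene at a time, an exact permutation test on 3 against 3 mice is bounded at p = 0.1, so none was used for calls. No source says whether mice shared cages or litters, so p-values measure the spread between these mice.

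**Figure D2:**
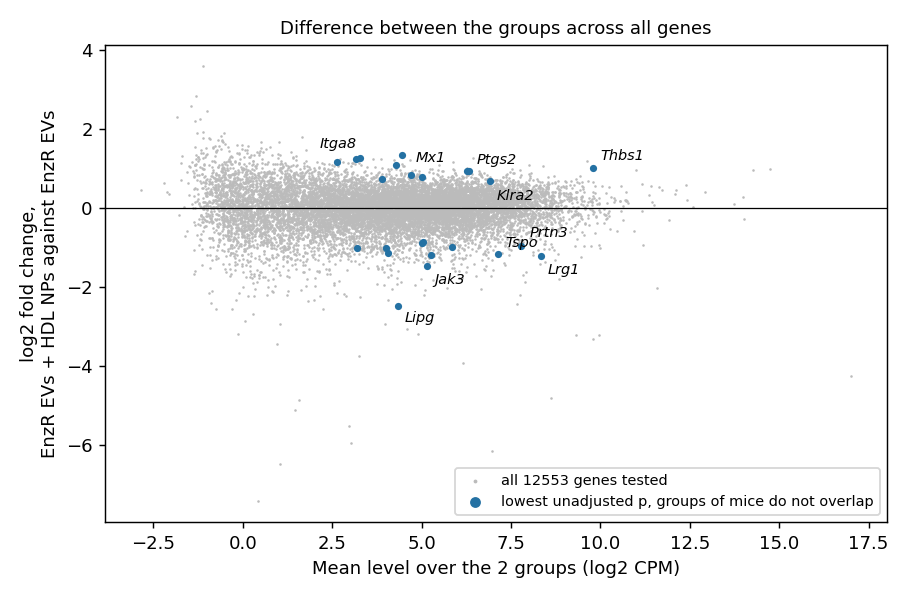
Each point is 1 of the 12553 genes tested, with its mean level over both groups (log2 CPM) and its log2 fold change between EnzR EVs + HDL NPs and EnzR EVs. Blue points are the 12 higher and 12 lower genes with the lowest unadjusted edgeR p among genes at 5 CPM or more whose groups of mice did not overlap, from −2.48 for Lipg to 1.34 for 4933431G14Rik.

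The gene with the third lowest p was Thbs1 (chr2:118111876-118127133, GRCm38, plus strand). It stood at 559.7, 628 and 582 CPM with EnzR EVs alone, at 1012, 1121 and 1447 CPM with HDL NPs, and at 1073, 1799 and 1737 CPM after PBS. Every mouse with HDL NPs was above every mouse with EnzR EVs alone, and the range with HDL NPs overlapped that after PBS. The log2 fold change was 1.02, 0.97 without EnzR EV replicate 1 and 0.92 in the low-Rn45s libraries. It ran from 0.84 to 1.11 with each of the 9 libraries left out in turn, although its adjusted edgeR p was 0.461 in the fit to all 9 libraries. The adjusted p was 0.00808 by DESeq2 on 6 libraries and 0.0474 by limma voom with sample quality weights, and over all 25 alternatives it ran from 0.00808 to 0.9997. Of 30 tested genes in the list of thrombospondin-1, matrix and matrix-degrading genes, 13 were higher and 17 lower, and 3 (10%) in each direction had an unadjusted edgeR p under 0.05, against 3.58% of all genes higher and 6.97% lower. Without EnzR EV replicate 1, 2 were higher and 1 lower at that threshold, where 2.52% of all genes were higher and 2.67% lower. The list's median log2 fold change was −0.10, against 0.03 for all genes tested. The higher ones besides Thbs1 were Fn1 and Has2. Fn1, which encodes fibronectin, stood at 533, 923 and 783 CPM after EnzR EVs and at 1233, 1041 and 984 CPM with HDL NPs. The mice did not overlap, with a log2 fold change of 0.54 that was 0.23 in the low-Rn45s libraries. Has2, a hyaluronan synthase, was near the depth limit, at 3.84, 2.71 and 1.89 CPM against 4.33, 4.41 and 5.52 CPM with HDL NPs (log2 fold change 0.87), where 3 counts correspond to 1.65 CPM in EnzR EV replicate 1. The gene for the matrix proteoglycan versican, Vcan, overlapped between the groups (log2 fold change 0.10), and its sign turned in the low-Rn45s libraries, at −0.51.

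Ptgs2, the inducible cyclooxygenase of prostaglandin synthesis (chr1:150100031-150108227), was also higher in every mouse with HDL NPs. It had 52.1, 64.9 and 48.7 CPM after EnzR EVs, 78.7, 127 and 112 CPM with HDL NPs, and 91.5, 121 and 119 CPM after PBS. Its log2 fold change was 0.93 (standard error 0.217, adjusted p = 0.461 by edgeR), and 0.70 in the low-Rn45s libraries. Itga8, an integrin alpha chain (chr2:12106632-12301922), stood at 4.39, 5.53 and 6.74 CPM after EnzR EVs and 13, 13.9 and 14.2 CPM with HDL NPs, a log2 fold change of 1.25. The values with HDL NPs were close to each other and lay within the PBS range of 6.16 to 15.8 CPM, and the fold change was 1.30 in the low-Rn45s libraries. Abca6, an ABC transporter of the A subfamily, was at 3.29, 3.03 and 5.08 CPM against 6.14, 10.1 and 9.78 CPM with HDL NPs, without overlap (log2 fold change 1.17, and 1.504 in the low-Rn45s libraries). The other genes at the top of the ranking among those that were higher were Klra2 (a Ly49 lectin-like receptor), Orm2 (an acute-phase plasma protein), Mx1, Gdap10, Skint3, 4933431G14Rik, 4933407H18Rik and 5830416P10Rik, with log2 fold changes from 0.66 for Klra2 to 1.34 for 4933431G14Rik. Klra2 was at 76.8, 111 and 90.1 CPM after EnzR EVs and at 142, 148 and 153 CPM with HDL NPs, above the PBS range of 85.9 to 108 CPM. 4933431G14Rik was at 9.33, 14.8 and 12.1 CPM against 27.1, 30.3 and 37.5 CPM with HDL NPs. None of the 6 mice crossed for either gene, and in the low-Rn45s libraries these 8 genes were higher by 0.41 for Klra2 to 1.09 for 4933431G14Rik.

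Of the 12 lower genes at the top of the ranking, Lipg had the largest log2 fold change. Lipg encodes endothelial lipase, a phospholipase that acts on HDL. Mice with EnzR EVs alone had 32.4, 37.7 and 32.5 CPM, and those with HDL NPs as well had 5.63, 6.02 and 6.78 CPM. The mice within each of these groups were close to each other, and the groups were far apart. After PBS the values were 15.3, 3.05 and 2.12 CPM, the high one in PBS replicate 1, so that Lipg spread more among the controls than within either EV group. The log2 fold change was −2.48 (standard error 0.578, adjusted p = 0.461 by edgeR), and it ran from −2.57 to −2.42 with each library left out in turn. Without PBS replicate 1, which is in neither group compared but enters the fit, edgeR called Lipg (adjusted p = 0.00522), and it did so in the low-Rn45s libraries (log2 fold change −2.62, adjusted p = 0.00184 by edgeR).

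Tspo (chr15:83563592-83574203), a cholesterol- and porphyrin-binding protein of the outer mitochondrial membrane, had the lowest p of all genes. Its levels were 227, 190.3 and 169 CPM after EnzR EVs, 89.4, 98.7 and 69.2 CPM with HDL NPs, and 165, 116 and 107 CPM after PBS. Every mouse with HDL NPs was below every mouse of the other groups. The log2 fold change was −1.18 (standard error 0.215, adjusted p = 0.461 by edgeR), DESeq2 gave an adjusted p of 0.00946, and the fold change was −1.15 in the low-Rn45s libraries. Jak3, the tyrosine kinase of cytokine receptors with the common gamma chain (chr8:71676296-71690575), was at 69.1, 35.6 and 52 CPM against 16.2, 20.8 and 18.7 CPM with HDL NPs (log2 fold change −1.47). Lrg1, a leucine-rich glycoprotein found in neutrophil granules (chr17:56119678-56122001), was at 567, 352 and 441 CPM against 126, 254 and 198 CPM with HDL NPs (log2 fold change −1.23). In both genes EnzR EV replicate 1 was the highest library, and in the low-Rn45s libraries the log2 fold changes were −0.94 for Jak3 and −0.87 for Lrg1. The other lower genes at the top of the ranking were Prss57, Prtn3, Cd63 (a tetraspanin of late endosomes and granules), Tgm1 (a transglutaminase), Smox (spermine oxidase), Aarsd1, Ccdc56 and Timm13 (a mitochondrial import chaperone). Their log2 fold changes ran from −1.20 for Prss57 to −0.87 for Ccdc56, and in the low-Rn45s libraries from −1.12 for Prtn3 to −0.31 for Cd63. Tgm1 had the same size there, at −1.01 against −1.02 in all libraries, from 13.2, 12.1 and 11.6 CPM after EnzR EVs and 5.91, 7.15 and 4.96 CPM with HDL NPs.

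**Figure D3:**
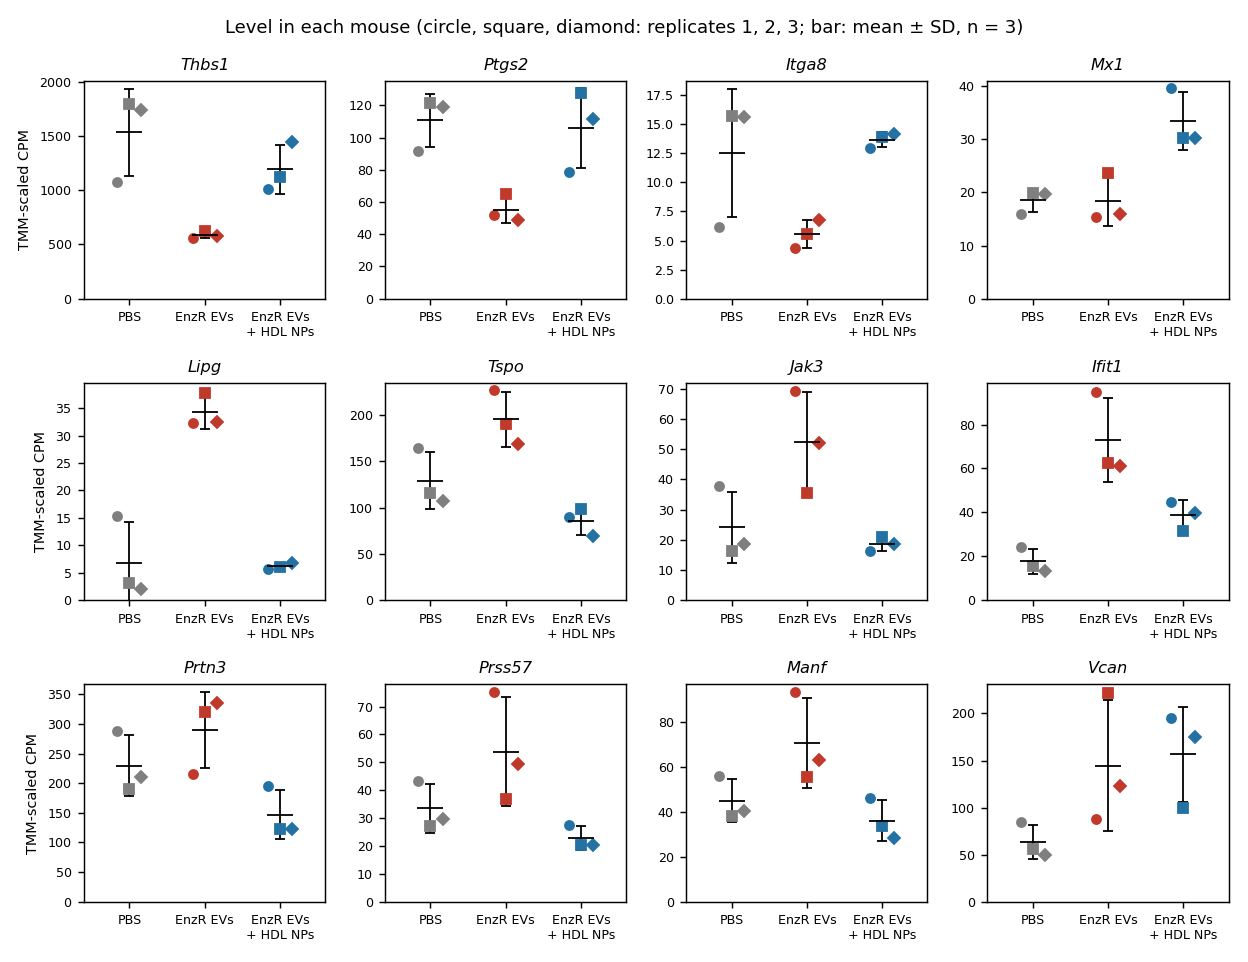
TMM-scaled CPM of 12 genes in each of the 9 mice, by group; bars give the mean and SD over 3 mice, and the lower bar of Lipg after PBS is cut at 0. For Thbs1, Ptgs2, Itga8 and Mx1 the 3 mice with HDL NPs lay above the 3 with EnzR EVs alone, for Lipg, Tspo, Jak3, Ifit1, Prtn3, Prss57 and Manf they lay below, and for Vcan the groups overlapped.

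Genes of the unfolded protein response were mostly lower with HDL NPs. This response raises chaperones and folding enzymes of the endoplasmic reticulum (ER) through ATF6, IRE1 with XBP1, and PERK with ATF4. Of 26 tested members, 20 were lower and 6 higher where 47.2% of all genes were lower, and 7 (26.9%) were lower at an unadjusted edgeR p under 0.05 against 6.97% of all genes. The mice with HDL NPs were all below the others for 8 members (30.8%), against 8.58% of all genes. The list's median log2 fold change was −0.30, −0.28 without EnzR EV replicate 1 and −0.24 in the low-Rn45s libraries, against 0.03, 0.01 and 0.01 for all genes. Over all 25 alternatives the list's median ran from −0.41 to −0.06. The members' mean log2 CPM per mouse was 6.09, 6.14 and 6.24 after EnzR EVs, 5.93, 5.80 and 5.84 with HDL NPs and 6.06, 5.87 and 5.97 after PBS. The EV groups did not overlap in this mean, and the PBS mice overlapped the range with HDL NPs but not that after EnzR EVs alone. Members share mice and are not independent of each other, and no member passed the adjusted threshold in edgeR. The list was chosen with earlier results of these data known, so its shares beside those of all genes are a description.

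Manf, a secreted ER stress protein (chr9:106838312-106891979), was at 93.3, 55.6 and 63.1 CPM after EnzR EVs and at 45.9, 33.6 and 28.3 CPM with HDL NPs (log2 fold change −0.96, and −0.63 in the low-Rn45s libraries). Creld2, an ER protein of the same response, was at 18.7, 20.3 and 26.8 CPM against 16.2, 14.3 and 12.5 CPM with HDL NPs (log2 fold change −0.63). All 3 mice with HDL NPs were below all 3 without them for both genes. Of the next members, named after their values were seen, Hspa5, the ER chaperone BiP, was at 589.9, 519 and 534 CPM against 499.5, 355 and 348 CPM with HDL NPs (log2 fold change −0.45). Pdia6, a disulfide isomerase, was at 125, 133 and 130.3 CPM against 109, 61.6 and 70.2 CPM with HDL NPs (log2 fold change −0.69). The mice did not overlap for these either, and replicate 1 was the highest of the mice with HDL NPs in both. Sdf2l1, a partner of BiP, had a log2 fold change of −0.73 with overlapping mice, and Dnajc3, a co-chaperone, one of −0.34 without overlap. In the libraries with little Rn45s the log2 fold changes of Hspa5, Pdia6, Sdf2l1 and Dnajc3 were −0.38, −0.73, −0.91 and −0.19.

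The promoters of Hspa5, Pdia6, Dnajc3 and Creld2 are shown because these members share a known element. The ER stress response element, CCAAT, then 9 bases of any kind, then CCACG, was searched on both strands in RefSeq promoters (GRCm38.p6), which run from 250 bases before to 50 after a gene's start. It lay in 7 of the 23 tested members with a promoter entry (30.4%), and in 37 of the 27025 genes of the table (0.137%). The 7 were Hspa5, Hsp90b1, Calr, Canx, Pdia6, Dnajc3 and Creld2; the list was written from known targets of this response, so the share is a description. Sequences are given 5′ to 3′ on the plus strand, on which all of these genes lie, at chr2:34771840-34772139 for Hspa5, chr12:17266339-17266638 for Pdia6, chr14:118937682-118937981 for Dnajc3 and chr15:88819396-88819695 for Creld2. Capitals mark the element, which in Creld2 reads on the opposite strand.
Hspa5: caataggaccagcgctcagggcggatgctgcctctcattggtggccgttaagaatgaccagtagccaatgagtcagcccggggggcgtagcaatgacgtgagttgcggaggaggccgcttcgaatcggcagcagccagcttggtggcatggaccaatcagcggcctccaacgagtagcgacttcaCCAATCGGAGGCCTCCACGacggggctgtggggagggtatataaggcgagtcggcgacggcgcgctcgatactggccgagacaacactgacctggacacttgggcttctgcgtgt
Pdia6: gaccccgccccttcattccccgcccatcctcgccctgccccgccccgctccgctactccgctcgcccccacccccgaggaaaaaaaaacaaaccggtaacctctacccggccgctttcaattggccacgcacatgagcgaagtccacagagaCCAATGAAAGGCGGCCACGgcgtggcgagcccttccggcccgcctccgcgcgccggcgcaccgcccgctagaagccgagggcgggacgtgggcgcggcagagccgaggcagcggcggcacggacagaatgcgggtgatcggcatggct
Dnajc3: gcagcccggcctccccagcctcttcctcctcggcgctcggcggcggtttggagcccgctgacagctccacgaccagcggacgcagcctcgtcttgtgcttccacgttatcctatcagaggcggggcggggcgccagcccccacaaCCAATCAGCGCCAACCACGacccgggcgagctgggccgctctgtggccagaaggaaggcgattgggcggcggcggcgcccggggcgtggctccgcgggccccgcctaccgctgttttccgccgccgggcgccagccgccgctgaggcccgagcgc
Creld2: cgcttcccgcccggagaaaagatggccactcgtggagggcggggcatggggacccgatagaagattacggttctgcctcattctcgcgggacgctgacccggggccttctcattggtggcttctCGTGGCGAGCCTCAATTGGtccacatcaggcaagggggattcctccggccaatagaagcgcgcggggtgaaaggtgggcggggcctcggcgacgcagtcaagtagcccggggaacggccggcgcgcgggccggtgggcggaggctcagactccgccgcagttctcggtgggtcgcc
A match describes these letters and not the binding of a factor, which was not measured.

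Markers of granulocyte precursors, the genes of primary granules made early in neutrophil maturation, were mostly lower with HDL NPs. Of 10 tested markers 9 were lower and 1 higher. This list too was chosen with earlier results of these data known, and its shares are a description. At an unadjusted edgeR p under 0.05, 4 (40%) were lower against 6.97% of all genes, and 5 (50%) were lower without overlap of the mice against 8.58%. The median log2 fold change was −0.47, −0.70 without EnzR EV replicate 1, and −0.67 in the low-Rn45s libraries, where all 10 were lower. Prtn3, the granule protease proteinase 3 (chr10:79874476-79883174), stood at 216, 319 and 335 CPM after EnzR EVs, at 196, 123 and 123 CPM with HDL NPs, and at 288, 191 and 209.95 CPM after PBS. The mice with HDL NPs lay below those with EnzR EVs alone, and replicate 1 of the HDL NP group was close to replicate 1 of the EnzR EV group. Prss57, another granule protease, was at 75.2, 36.7 and 49.4 CPM against 27.7, 20.5 and 20.4 CPM with HDL NPs (log2 fold change −1.20). Nkg7, a granule membrane protein, was at 66.9, 35.7 and 42.9 CPM against 29.4, 16.4 and 18.9 CPM with HDL NPs (log2 fold change −1.14). Neither gene overlapped between the groups, and both were highest in EnzR EV replicate 1. Mpo (myeloperoxidase) and Elane (neutrophil elastase), defining genes of the granule, were added after their values were seen. Mpo was at 1673, 1065 and 1189 CPM against 1048, 439 and 536 CPM with HDL NPs, and Elane at 165, 334 and 412 CPM against 243, 144 and 206 CPM. The log2 fold changes were −0.96 for Mpo and −0.63 for Elane, and the groups overlapped for Elane through EnzR EV replicate 1. Mpo was at −1.44 without replicate 1 with HDL NPs, and Elane at −0.34 without EnzR EV replicate 3. Summed over the 10 markers, the level was 2783, 2629 and 2713 CPM after EnzR EVs and 2243, 1329.9 and 1443 CPM with HDL NPs, with replicate 1 closest to the EnzR EV mice. The mean log2 CPM of the list was 6.55, 7.04 and 6.94 after EnzR EVs and 6.81, 6.13 and 6.09 with HDL NPs, so in this mean, which weights the markers equally, the groups overlapped through replicate 1 of each. In sorted cells analysed in bulk, fewer precursors and less of these RNAs per precursor cannot be told apart.

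**Figure D4:**
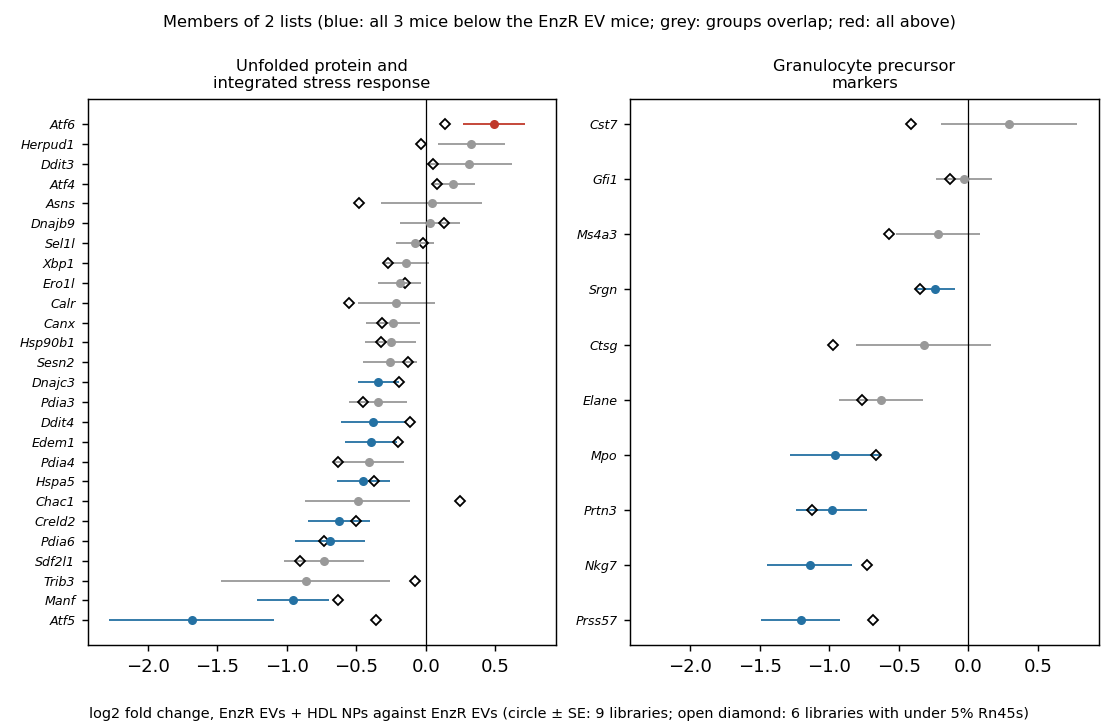
log2 fold change (EnzR EVs + HDL NPs against EnzR EVs) of each tested member of 2 lists, the unfolded protein and integrated stress response and granulocyte precursor markers, with its standard error from all 9 libraries (circles) and its value in the 6 low-Rn45s libraries (open diamonds); colours show whether the groups of mice overlapped. Of the members, 20 of 26 and 9 of 10 were below 0, and in the low-Rn45s libraries 21 and 10 were.

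Genes of cholesterol handling were examined because HDL NPs act on cell cholesterol through SR-B1. Scarb1 itself was at 28, 69.2 and 43.6 CPM after EnzR EVs and at 51.3, 52.2 and 45.7 CPM with HDL NPs. The mice with EnzR EVs alone covered the whole range of the others, and the log2 fold change of 0.05 turned to −0.48 in the low-Rn45s libraries. Of the 25 SREBP2 targets tested, 17 were lower and 8 higher, 2 (8%) were lower at an unadjusted edgeR p under 0.05 against 6.97% of all genes, and 6 (24%) were lower without overlap against 8.58%. The 2 became 1 without EnzR EV replicate 1, where 2.67% of all genes were lower. The list's median was −0.16, −0.21 in the low-Rn45s libraries, where 21 were lower, 0.03 with scaling by library size only, where that of all genes was 0.24, and 0.01 with the log2 Rn45s share as a term, where that of all genes was −0.0011. Hmgcs1 and Sqle, enzymes of sterol synthesis, overlapped between the groups, with log2 fold changes of 0.01 (standard error 0.193) and −0.06 (standard error 0.332). Insig1, which holds SREBP in the ER, was at 59.3, 28.9 and 24.6 CPM against 28.3, 28 and 21.2 CPM with HDL NPs, and its log2 fold change of −0.49 was −0.06 without EnzR EV replicate 1.

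Srebf2, the gene of SREBP2 itself, was at 242, 121 and 165 CPM against 81.8, 100.3 and 119.9 CPM with HDL NPs (log2 fold change −0.80, and −0.27 in the low-Rn45s libraries). Fdps, farnesyl diphosphate synthase, was at 19.8, 26.9 and 18.6 CPM against 14.8, 13.1 and 12.1 CPM with HDL NPs (log2 fold change −0.72, and −1.02 in the low-Rn45s libraries). Both genes were lower in every mouse with HDL NPs, and EnzR EV replicate 1 was the highest of the 6 libraries for Srebf2 but not for Fdps.

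Efflux genes showed small differences. Abca1 was at 32.4, 28.3 and 32.3 CPM after EnzR EVs and 31.5, 30.9 and 37.5 CPM with HDL NPs (log2 fold change 0.11, standard error 0.219). Abcg1 was at 53.8, 85.3 and 91.7 CPM against 76.4, 96 and 97.9 CPM with HDL NPs (log2 fold change 0.21, standard error 0.227, and 0.02 without EnzR EV replicate 1). Both overlapped between the groups, and the list of 19 tested genes of efflux, the HDL receptor and LXR had 12 higher and 7 lower, with a median of 0.10 that was −0.03 in the low-Rn45s libraries. Cd36, a scavenger receptor for fatty acids and oxidised lipoproteins, was at 7.68, 11.9 and 9.58 CPM after EnzR EVs, 19.98, 18.8 and 21.8 CPM with HDL NPs and 8.1, 19.5 and 25.3 CPM after PBS. Every mouse with HDL NPs was above every mouse with EnzR EVs alone, with a log2 fold change of 1.00 (adjusted p = 0.461 by edgeR), and 0.75 in the low-Rn45s libraries. Soat1, which esterifies cholesterol, had a log2 fold change of −0.91, but the mice overlapped and the value was −0.03 in the low-Rn45s libraries.

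In fatty acid metabolism, 25 genes were tested, Lipg included, of which 12 were higher and 13 lower, with 1 (4%) higher at an unadjusted edgeR p under 0.05 against 3.58% of all genes, and 4 (16%) lower against 6.97%. The 4 became 1 without EnzR EV replicate 1, where 2.67% of all genes were lower. Srebf1, the regulator of fatty acid synthesis, was at 48.3, 46.1 and 49.9 CPM after EnzR EVs and 38.2, 37.2 and 36.3 CPM with HDL NPs. The difference was small with little spread and no overlap (log2 fold change −0.37, and −0.31 in the low-Rn45s libraries). Scd2, a desaturase, was at 192, 64.7 and 86.4 CPM against 45.6, 27.1 and 35.7 CPM with HDL NPs (log2 fold change −1.64, and −0.84 in the low-Rn45s libraries). Fasn, fatty acid synthase, was at 98.8, 42.7 and 46.8 CPM against 40.6, 18.5 and 28.4 CPM with HDL NPs (log2 fold change −1.07, and −0.55 in the low-Rn45s libraries). EnzR EV replicate 1 was the highest of the 6 libraries for both Scd2 and Fasn, and no mouse crossed between the groups. Fabp4, a lipid chaperone of macrophages and fat cells, went the other way, at 0.549, 4.84 and 6.03 CPM against 9.51, 9.78 and 10.8 CPM with HDL NPs (log2 fold change 1.16, and 1.05 in the low-Rn45s libraries), and its lowest value is 1 count in EnzR EV replicate 1. Fasn and Fabp4 were added after their values were seen.

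Interferon-stimulated genes, which code for antiviral proteins induced by interferon, were divided. Of 50 tested genes 35 were higher and 15 lower with HDL NPs, with 3 (6%) higher at an unadjusted edgeR p under 0.05 against 3.58% of all genes, and 2 (4%) lower against 6.97%. Without EnzR EV replicate 1 these were 2 and 5, where 2.52% of all genes were higher and 2.67% lower. The list's median log2 fold change of 0.39 was 0.07 without EnzR EV replicate 1 and −0.19 in the low-Rn45s libraries, where 10 were higher and 40 lower. The mean log2 CPM of the list was 4.44, 6.05 and 5.39 in the EnzR EV mice and 5.97, 5.64 and 5.71 in those with HDL NPs, so that the EnzR EV mice spread across the whole range of the others. Ifit1, a sensor of viral RNA (chr19:34640871-34650009), was at 94.9, 62.5 and 61 CPM after EnzR EVs and 44.9, 31.5 and 39.6 CPM with HDL NPs. All mice with HDL NPs were lower, and these levels stayed above the PBS range of 13.2 to 24.1 CPM. The log2 fold change was −0.90 (standard error 0.262, adjusted p = 0.461 by edgeR), −0.68 without EnzR EV replicate 1 and −0.70 in the low-Rn45s libraries. Ifitm1, a membrane protein that restricts viral entry, was at 39, 67.8 and 36.9 CPM against 17.1, 38.2 and 16.3 CPM with HDL NPs (log2 fold change −1.02), with replicate 2 the highest in both groups and overlapping mice.

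Mx1, an interferon-induced GTPase (chr16:97447035-97462907), lay on the other side, at 15.4, 23.7 and 15.8 CPM after EnzR EVs and 39.7, 30.3 and 30.3 CPM with HDL NPs. The PBS mice, at 16, 19.9 and 19.6 CPM, lay with the EnzR EV mice. Its log2 fold change was 0.84 (adjusted p = 0.461 by edgeR), and 0.49 in the low-Rn45s libraries. Mx2 and Stat2, named after their values were seen, were higher by 1.08 and 0.53 on the log2 scale, with Mx2 at 1 count in EnzR EV replicate 1 and overlapping mice for Stat2. Rsad2 (viperin) was at 105, 178 and 144 CPM against 130.3, 111 and 154 CPM with HDL NPs, and Irf7, a regulator of interferon genes, at 30.7, 131 and 75.8 CPM against 115, 104 and 88.9 CPM. Both overlapped between the groups, and their log2 fold changes of −0.13 and 0.34 were −0.44 and −0.35 in the low-Rn45s libraries. The promoter of Ifit1 (chr19:34640639-34640938, GRCm38.p6, plus strand) is shown because this gene was lower in all mice while its list was divided. Capitals mark the interferon-stimulated response element, GAAA, then 2 bases of any kind, then GAAA, which lies on the opposite strand in 2 places.
Ifit1: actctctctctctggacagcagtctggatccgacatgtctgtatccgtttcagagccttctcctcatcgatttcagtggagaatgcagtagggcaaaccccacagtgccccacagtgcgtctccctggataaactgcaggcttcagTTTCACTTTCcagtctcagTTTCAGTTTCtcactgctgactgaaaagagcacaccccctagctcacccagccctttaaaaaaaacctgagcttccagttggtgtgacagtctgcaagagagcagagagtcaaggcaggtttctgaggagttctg
The element, searched on both strands, was in 21 of the 38 tested list members with a promoter entry (55.3%) and in 1079 of the 27025 genes (3.99%); this list too was written from known targets. Genes of MHC and antigen presentation had 9 of 19 higher and a median of −0.01, and the heat shock response had 7 of 14 higher and a median of −0.11.

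Inflammatory and early-response genes were divided as well. Of 39 tested NF-kB targets and feedback inhibitors 24 were higher and 15 lower, with 3 (7.69%) higher and 2 (5.13%) lower at an unadjusted edgeR p under 0.05, against 3.58% and 6.97% of all genes. Without EnzR EV replicate 1, 2 were higher and 2 lower at that threshold, where 2.52% of all genes were higher and 2.67% lower. The list's median was 0.07, and −0.03 in the low-Rn45s libraries. The 3 higher genes were Ptgs2, Nfkbiz and Nlrp3, the latter named after their values were seen. Nfkbiz, a nuclear protein of the IkB family, was at 132, 171 and 159 CPM against 161, 250.3 and 259 CPM with HDL NPs (log2 fold change 0.53). Nlrp3, an inflammasome sensor, was at 104, 93.5 and 107 CPM against 105, 138 and 167 CPM with HDL NPs (log2 fold change 0.43, and 0.25 without replicate 3 with HDL NPs). In both genes the lowest mouse with HDL NPs lay within the EnzR EV range. The feedback inhibitors Nfkbia and Tnfaip3 and the cytokine gene Il1b had log2 fold changes of 0.10, −0.18 and 0.23, with standard errors of 0.224, 0.2 and 0.257, and overlapping mice. Cebpb, a myeloid transcription factor, was 1 of the 2 lower genes and differed mainly in EnzR EV replicate 1: it was at 1422, 198 and 542 CPM against 128, 224 and 267 CPM with HDL NPs, and its log2 fold change of −1.80 was 0.05 in the low-Rn45s libraries. Bcl3, the other, is a nuclear IkB protein and was at 67.5, 12.5 and 13.7 CPM against 7.6, 11 and 9.78 CPM with HDL NPs, without overlap, and its log2 fold change of −1.60 was −0.47 without EnzR EV replicate 1 and −0.40 in the low-Rn45s libraries.

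Atf3, a stress-induced transcription factor of the AP-1 network, was at 34.6, 45.2 and 30.7 CPM after EnzR EVs, 43.1, 59 and 58.8 CPM with HDL NPs, and 87.1, 82 and 97.7 CPM after PBS. The EV groups overlapped by 1 mouse and both lay below the PBS mice, and the log2 fold change was 0.53 (adjusted p = 0.461 by edgeR), and 0.24 in the low-Rn45s libraries. Fos and Egr1, immediate-early transcription factors, had log2 fold changes of 0.18 and 0.32, and their groups overlapped. Egr1 was at 0.13 without replicate 3 with HDL NPs. Irf4, a transcription factor of lymphoid and dendritic cells and of some macrophages, was at 7.13, 4.31 and 5.2 CPM after EnzR EVs, 9.18, 8.76 and 7.82 CPM with HDL NPs, and 15.1, 11.4 and 13.5 CPM after PBS. For Irf4 the 3 groups were fully apart, with the HDL NP mice between the others, and the log2 fold change was 0.72, and 0.99 in the low-Rn45s libraries. Of 32 immediate-early and AP-1 genes 14 were higher and 18 lower, with a median of −0.07, and 0.11 in the low-Rn45s libraries. At an unadjusted edgeR p under 0.05, 2 (6.25%) were higher against 3.58% of all genes, and 5 (15.6%) lower against 6.97%. Without EnzR EV replicate 1 these were 2 and 0, where 2.52% of all genes were higher and 2.67% lower. The higher genes were Atf3 and Egr3, an early growth response factor, which was near the depth limit at 1.1, 1.28 and 1.06 CPM against 2.03, 2.86 and 3.63 CPM with HDL NPs (log2 fold change 1.26).

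Among antioxidant and metal-response genes, Gpx1, a glutathione peroxidase, was at 1574, 851 and 959 CPM after EnzR EVs and 543, 684 and 507 CPM with HDL NPs. All mice with HDL NPs were lower (log2 fold change −0.96, and −0.56 in the low-Rn45s libraries), and EnzR EV replicate 1 was the highest. Txnrd1, thioredoxin reductase, was at 130.05, 108 and 125 CPM against 91.3, 90.4 and 92.3 CPM with HDL NPs, beside a PBS range of 90.6 to 95.3 CPM (log2 fold change −0.40, and −0.25 in the low-Rn45s libraries). Slc7a11, the cystine transporter, was at 28, 57.8 and 37.8 CPM against 67.5, 84.3 and 68 CPM with HDL NPs (log2 fold change 0.80). Hmox1, heme oxygenase, was at 76.8, 114 and 95.8 CPM against 154, 136 and 130.3 CPM with HDL NPs (log2 fold change 0.54, adjusted p = 0.490 by edgeR). These latter genes were higher in all mice with HDL NPs, by 0.34 and 0.29 in the low-Rn45s libraries. The metallothionein gene Mt1 was at 3.55 to 6.81 CPM against 4.26 to 7.82 CPM (log2 fold change 0.14), and Mt2 did not pass the filter on low counts. Of 22 tested genes in this list 14 were higher and 8 lower, and the median of 0.10 was −0.20 in the low-Rn45s libraries.

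Of 31 adhesion genes tested, 20 were higher and 11 lower, and at an unadjusted edgeR p under 0.05 Itga8 and Itga4 (6.45%) were higher and Cd63 (3.23%) was lower, against 3.58% of all genes higher and 6.97% lower. Without EnzR EV replicate 1, 1 gene was higher and 1 lower at that threshold, where 2.52% of all genes were higher and 2.67% lower. Itga4, the alpha chain of the integrin VLA-4, was at 239, 349 and 311 CPM against 396, 365 and 439.5 CPM with HDL NPs (log2 fold change 0.41, and 0.19 in the low-Rn45s libraries). Cd63 was at 96.6, 46.6 and 86.9 CPM against 35.7, 36.7 and 40.7 CPM with HDL NPs. The groups did not overlap for either gene, although the lowest EnzR EV mouse was close to the HDL NP mice for Cd63. Among 18 tested genes of osteoclast precursors, 14 were higher and 4 lower with a median of 0.10. The median was −0.03 without EnzR EV replicate 1 and 0.01 in the low-Rn45s libraries. At an unadjusted edgeR p under 0.05, 0 were higher against 3.58% of all genes, and 1 (5.56%) was lower against 6.97%. Csf1r, the receptor for macrophage colony-stimulating factor, had a log2 fold change of 0.08, and Nfatc1, the main regulator of osteoclast differentiation, one of 0.42 that was 0.02 in the low-Rn45s libraries. The groups overlapped for both. Psap, which encodes prosaposin, a precursor of lysosomal activators, was named after its values were seen and stood at 5044, 1654 and 2518 CPM against 1596, 1646 and 1574 CPM with HDL NPs. Its log2 fold change of −0.94 was −0.05 in the low-Rn45s libraries.

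Genes of proliferation were more often lower than higher. Of 42 S phase genes 30 were lower, 10 (23.8%) of them at an unadjusted edgeR p under 0.05 against 6.97% of all genes, and 0 were higher at that threshold. The 10 became 3 without EnzR EV replicate 1, where 2.67% of all genes were lower. The median was −0.22, −0.28 in the low-Rn45s libraries, where 41 were lower, and 0.02 with scaling by library size only, which moved the median of all genes to 0.24. Pold1, a DNA polymerase subunit, was at 88.9, 54.3 and 79.8 CPM against 48.1, 43 and 45.5 CPM with HDL NPs (log2 fold change −0.69, and −0.26 in the low-Rn45s libraries). Rrm2, of ribonucleotide reductase, had a log2 fold change of −0.56, and −0.23 in the low-Rn45s libraries. Of 55 G2/M genes 32 were lower, 10 (18.2%) at an unadjusted edgeR p under 0.05 and 6 without EnzR EV replicate 1, and the median of −0.04 was 0.18 with scaling by library size only, 0.03 without EnzR EV replicate 2 and −0.27 in the low-Rn45s libraries, where 54 were lower. Cdc25b, a phosphatase that activates mitotic kinase, and Cdk1, that kinase, had log2 fold changes of −1.60 and −0.61, and −0.65 and −0.40 in the low-Rn45s libraries. For these 4 genes every mouse with HDL NPs was below every mouse with EnzR EVs alone. The mean log2 CPM per mouse of the S phase list was 5.16, 5.35 and 5.27 after EnzR EVs and 5.28, 4.93 and 4.95 with HDL NPs, so replicate 1 with HDL NPs lay within the EnzR EV range. For the G2/M list it was 6.14, 6.47 and 6.35 after EnzR EVs and 6.38, 6.15 and 6.15 with HDL NPs, again with overlap.

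Nuclear genes of the respiratory chain and ATP synthase had 33 of 47 lower. At an unadjusted edgeR p under 0.05, 12 (25.5%) were lower against 6.97% of all genes and 0 were higher, and 17 (36.2%) were lower without overlap against 8.58%. The 12 became 7 without EnzR EV replicate 1, where 2.67% of all genes were lower. The mean log2 CPM per mouse of the list was 5.15, 5.58 and 5.46 after EnzR EVs and 5.42, 5.37 and 5.07 with HDL NPs, so the groups overlapped in this mean. The list's median was −0.21, −0.26 without EnzR EV replicate 1, −0.31 in the low-Rn45s libraries and 0.03 with scaling by library size only, against 0.24 for all genes there. Ndufa2, of complex I, was at 45, 36.6 and 46.2 CPM against 27, 30.4 and 23.3 CPM with HDL NPs (log2 fold change −0.66, and −0.45 in the low-Rn45s libraries). Sdhc, of complex II, was at 88.3, 43 and 70.2 CPM against 36.1, 32.9 and 39.3 CPM with HDL NPs (log2 fold change −0.88, and −0.26 in the low-Rn45s libraries). Both were lower in all mice with HDL NPs. Cytosolic ribosomal protein genes, whose reads can be split with processed copies and are less certain, had 30 of 69 lower and a median of 0.09. The median was −0.20 in the low-Rn45s libraries, where 51 were lower. At an unadjusted edgeR p under 0.05, 7 (10.1%) were lower against 6.97% of all genes, and 0 were higher. Rps2, with the lowest p in this list, was at 87.8, 45.9 and 45.3 CPM against 33.6, 28.2 and 23.5 CPM with HDL NPs (log2 fold change −1.04). Lysosome genes had 16 of 33 lower and a median of 0.02, which was −0.15 in the low-Rn45s libraries, where 30 were lower. Of the lysosome genes, 4 (12.1%) were lower and 0 higher at an unadjusted edgeR p under 0.05. The 4 became 2 without EnzR EV replicate 1, where 2.67% of all genes were lower.

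Marker lists of other cell types were followed because the sort could hold them in uneven amounts. Maturing neutrophil markers were higher in 13 of 13, with a median of 0.37, but 0 reached an unadjusted edgeR p under 0.05, and the median was −0.01 without EnzR EV replicate 1 and −0.13 in the low-Rn45s libraries. Their summed level was 33365, 135142 and 74859.7 CPM after EnzR EVs and 112430, 158690 and 92142 CPM with HDL NPs. EnzR EV replicate 1 was lowest by far and the other mice overlapped. Monocyte markers were higher in 11 of 12 with a median of 0.33, and −0.04 in the low-Rn45s libraries. Cx3cr1, a chemokine receptor of monocytes, was at 39.5, 45.8 and 43.2 CPM against 49.1, 64.5 and 51.5 CPM with HDL NPs, without overlap (log2 fold change 0.36, and 0.20 without replicate 2 with HDL NPs). Marrow macrophage markers were higher in 13 of 16 with a median of 0.46, 0.18 in the low-Rn45s libraries and 0.07 with the log2 Rn45s share as a term. At an unadjusted edgeR p under 0.05, 0 were higher against 3.58% of all genes, and 1 (6.25%) was lower against 6.97%. Without overlap of the mice, 6 (37.5%) were higher against 8.99% of all genes. The mean log2 CPM per mouse of this list was 4.41, 4.86 and 4.57 after EnzR EVs and 5.23, 4.92 and 4.87 with HDL NPs. The groups did not overlap in this mean, by a narrow margin. Cd209f, a lectin of marrow macrophages, was at 0.549, 0.639 and 0.946 CPM after EnzR EVs, with the first of these at 1 count, and at 2.81, 2.03 and 1.54 CPM with HDL NPs. C1qb, a complement subunit, was lower instead, at 191, 45.9 and 66.9 CPM against 43.5, 34.3 and 33.2 CPM with HDL NPs (log2 fold change −1.42, and −0.31 in the low-Rn45s libraries).

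Erythroid markers were higher in 11 of 13 with a median of 0.59, 0.84 in the low-Rn45s libraries and −0.07 without replicate 2 with HDL NPs, and 2 (15.4%) were higher at an unadjusted edgeR p under 0.05 against 3.58% of all genes, which became 5 without EnzR EV replicate 1, where 2.52% of all genes were higher. Spnb1, erythroid spectrin, was at 14.3, 9.74 and 11.9 CPM against 16.6, 16.2 and 19.8 CPM with HDL NPs (log2 fold change 0.59). Alas2, the erythroid enzyme of heme synthesis, was at 12.1, 5.75 and 5.56 CPM against 8.56, 26.6 and 7.68 CPM with HDL NPs. Replicate 2 with HDL NPs was the highest for Alas2, and the groups overlapped. The summed erythroid level was 184, 222 and 171 CPM after EnzR EVs and 211, 445 and 142 CPM with HDL NPs, and 4 listed hemoglobin genes were listed at 0 in all 6 mice. B lineage markers summed to 52, 22.9 and 20.9 CPM after EnzR EVs and 49.7, 29.3 and 23.4 CPM with HDL NPs, with a median of 0.46 that was −0.21 without replicate 1 with HDL NPs. T and NK cell markers summed to 32.3, 33.5 and 33.6 CPM against 47.7, 28.7 and 30.02 CPM, with a median of 0.07 that was −0.05 in the low-Rn45s libraries, −0.44 without replicate 1 with HDL NPs and −0.87 over the members with at least 10 counts in every library. Both lists overlapped between the groups, with the highest sum in EnzR EV replicate 1 for B lineage markers and in replicate 1 with HDL NPs for T and NK cell markers. Platelet, dendritic and stromal lists had medians of 0.16, 0.06 and 0.26, and of 0.55, 0.27 and 0.52 in the low-Rn45s libraries. The list of eosinophils, basophils and mast cells had a median of 0.42, which was −0.03 in the low-Rn45s libraries. Each of these 4 lists had 0 or 1 gene at an unadjusted edgeR p under 0.05. Over all 25 alternatives the medians ran from −0.21 to 0.55 for platelet, −0.32 to 0.44 for dendritic, −0.0012 to 0.71 for stromal and −0.25 to 0.77 for eosinophil, basophil and mast cell markers. The part of cell composition in the differences above was not tested.

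**Figure D5:**
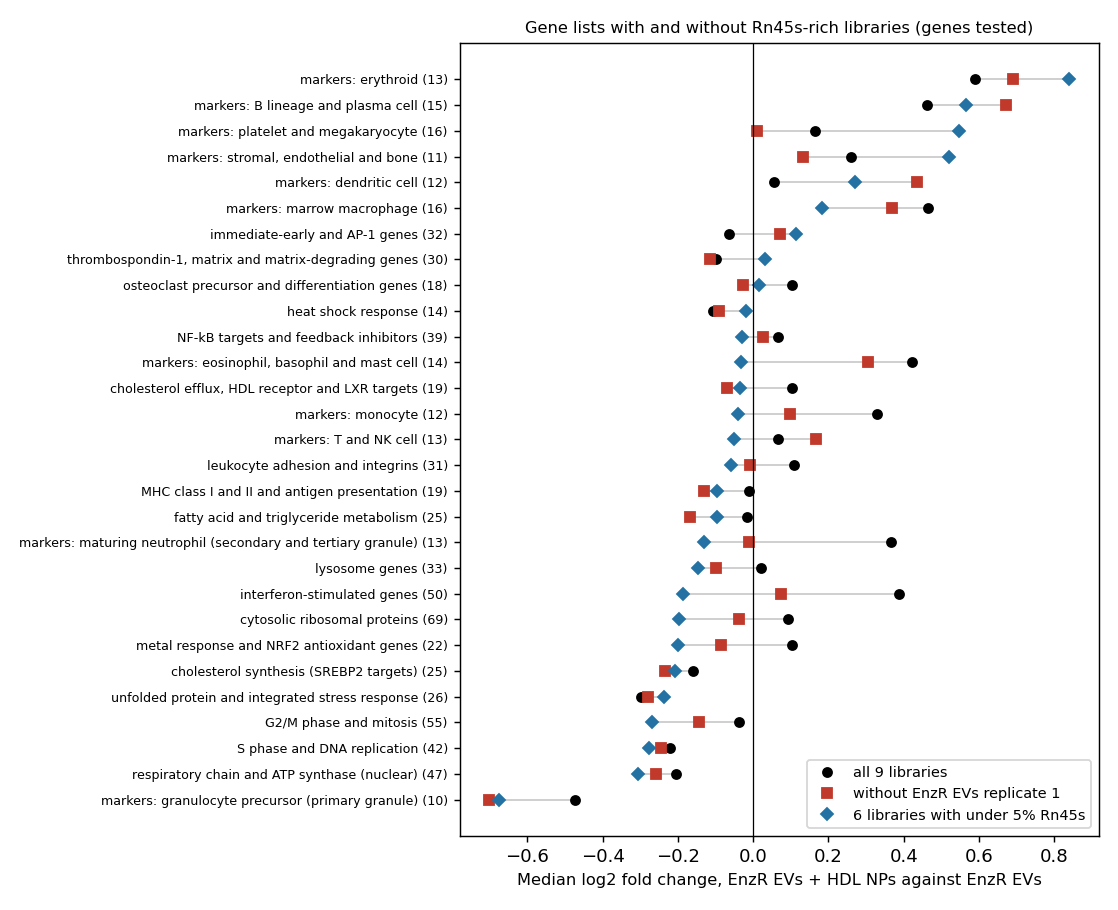
Median log2 fold change of each of 29 lists (genes tested in parentheses) in all 9 libraries, without EnzR EV replicate 1, and in the 6 low-Rn45s libraries, ordered by the last. Granulocyte precursor markers (−0.47, −0.70 and −0.67) and the unfolded protein response (−0.30, −0.28 and −0.24) stayed on the lower side in these 3 settings, and interferon-stimulated genes went from 0.39 to −0.19.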

How the data were processed

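Total RNA of CD11b+ cells, positively selected from the femurs and tibias of 9 mice 24 h after the last injection, was depleted of rRNA and sequenced from 1 end. For each gene the authors deposited a raw count of reads, after these were trimmed with cutadapt 1.13, aligned to mm10 with STAR and counted with HTSeq 0.6.1p1 on the UCSC annotation (versions from the submitters' processing notes). The counts carry no normalization, and the strand setting of the counting is not given in the sources used here.

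All 9 libraries were fitted together in R 4.3.3 with edgeR 4.0.16 (filterByExpr, TMM, robust quasi-likelihood fit, Benjamini-Hochberg threshold 0.05). Levels are TMM-scaled CPM, and log2 CPM has a prior count of 2. The common biological coefficient of variation was 0.259, and 3 counts equal 0.160 to 1.65 CPM, which covers counting error only. No replicates were duplicates: even PBS replicates 2 and 3, the most alike, had a chi-square over genes of 4.71 for each gene. Coordinates are from GENCODE M21 on GRCm38, the assembly of mm10. The edgeR, DESeq2 and unweighted voom fits were tested on simulated counts. There all libraries had the same composition apart from planted changes, so uneven Rn45s shares were not simulated.

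The gene lists (749 of 753 genes matched, 8 by an older symbol) and the named genes were chosen with earlier results of these data known. Some genes of these lists are not reported here by name. Named are hand-picked readouts, the 12 higher and 12 lower genes with the lowest p whose mice do not overlap at 5 CPM or more, up to 3 genes per list by p, and genes called by DESeq2 on 9 libraries (its calls on 6 libraries are counted, and most are not named). Alternatives were DESeq2 1.42.0, limma 3.58.1 voom with and without quality weights, other normalizations, filters and fits, the replicate number as a block, and leaving libraries out. The fit to low-Rn45s libraries and the one with the log2 Rn45s share as a term were added after seeing the data.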

Additional observations from a re-analysis of the deposited data

How the results depend on the processing

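The count of genes past the adjusted threshold was 0 in the main analysis and 0 under the other alternatives, except 1 by DESeq2 on 9 libraries (Tspo), 27 by DESeq2 on 6 libraries, 653 by limma voom with sample quality weights, and 1 (Lipg) by edgeR on 6 libraries only, with both low-total libraries left out, and in the low-Rn45s libraries. With each library left out in turn it was 0 to 1, the 1 being Lipg without PBS replicate 1. The replicate numbers were not treated as pairs, and 3 mice per group cannot settle whether they mark pairs. Deviations from the group mean of same-numbered EnzR EV and EnzR EV + HDL NP libraries correlated at −0.04, 0.21 and 0.12. Those of unlike numbers correlated at −0.34 to 0.19. A replicate block gave 0 calls with a lowest adjusted edgeR p of 0.187. Its counts at an unadjusted edgeR p under 0.05 were 1101 higher and 1185 lower, against 450 and 875 without the block. Scaling by library size only, which moved the median log2 fold change of all genes from 0.03 to 0.24, gave 1853 genes higher and 401 lower without overlap. Leaving out a library, with 2 mice left in a group, gave 1470 to 3257 genes higher without overlap (11.5% to 25.6%). Lower without overlap were 1312 to 3097 genes (10.2% to 24.3%). The main shares were 8.99% and 8.58%. Groups of 2 against 3 mice separate more readily than 3 against 3, so some rise was built in. The counts were highest without EnzR EV replicate 2. They were also over 1.5 times the main counts of 1128 and 1077 without replicate 1 (1759 and 1877) or, for lower genes, replicate 3 (1731) with HDL NPs. At an unadjusted edgeR p under 0.05 these fits gave 178 to 1811 higher and 339 to 1923 lower.

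Of 90 named genes, 73 had the same sign under all 25 alternatives, Thbs1, Lipg, Tspo, Ptgs2, Jak3, Lrg1, Prtn3, Ifit1, Mx1 and Manf among them, and 42 passed the threshold under at least 1 alternative. Many of these genes were named for a low p or a lack of overlap in these same libraries, or after their values were seen. The alternatives refit the same mice, so a kept sign was largely set by that choice. No such counts were made over all genes. The 17 log2 fold changes with a turned sign were those of genes with overlapping mice. With both low-total libraries left out these were Vcan −0.15, Scarb1 −0.20, Hmgcs1 −0.050, Irf7 −0.021, Nfkbia −0.13, Tnfaip3 0.018 and Csf1r −0.090. In the low-Rn45s libraries they were Vcan −0.51, Scarb1 −0.48, Hmgcs1 −0.11, Irf7 −0.35, Nfkbia −0.093, Tnfaip3 0.12, Il1b −0.083, Fos −0.13, Mt1 −0.25, Itgam −0.053 and Cebpb 0.054. With the log2 Rn45s share as a term they were Vcan −0.0073, Scarb1 −0.27, Abcg1 −0.014, Sqle 0.22, Insig1 0.075, Irf7 −0.25, Nfkbia −0.050, Tnfaip3 0.12, Fos −0.030, Mt1 −0.16 and Itgam −0.082. By library size only they were Sqle 0.15, Rsad2 0.077 and Tnfaip3 0.092. Quality weights gave Nfkbia −0.070 and Csf1r −0.076. Hmgcs1, at 0.0074 in the main analysis, was −0.011 and −0.015 by DESeq2 on 9 and 6 libraries, −0.014 by voom, −0.012 and −0.00812 with upper quartile and RLE scaling, −0.016 on 6 libraries only, −0.0049 with the replicate block and −0.00613 without Rn45s, hemoglobin, mitochondrial and small RNA genes. With each library left out in turn, values ran from −0.15 to 0.53 for Vcan, −0.19 to 0.42 for Scarb1, −0.0010 to 0.16 for Abca1, −0.049 to 0.049 for Hmgcs1, −0.17 to 0.040 for Sqle, −0.30 to 0.044 for Rsad2, −0.019 to 0.88 for Irf7, −0.13 to 0.27 for Nfkbia, −0.35 to 0.018 for Tnfaip3, −0.11 to 0.42 for Il1b, −0.021 to 0.33 for Fos, −0.16 to 0.50 for Mt1 and −0.090 to 0.24 for Csf1r. Further values kept their sign but moved by over 1.5 times. With EnzR EV replicate 1 left out Srebf2 was −0.51, Scd2 −1.07, Fasn −0.62, Stat2 0.35, Fn1 0.34, Psap −0.39, Nfatc1 0.15, Itgam 0.0093, Itga4 0.27, Cdc25b −0.99, Rps2 −0.69, C1qb −0.61, Cebpb −0.85 and Soat1 −0.43. With EnzR EV replicate 2 left out Mx2 was 1.66, Nfatc1 0.65 and Itgam 0.17, and with EnzR EV replicate 3 left out Abcg1 was 0.36. Without replicate 1 with HDL NPs Sdf2l1 was −1.11 and Itgam 0.19, without replicate 2 Ifitm1 was −1.56, Alas2 0.17 and Itgam 0.0059, and without replicate 3 Nfatc1 was 0.25 and Abcg1 0.14. The causes were not tested.

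The lists with the same sign of the median under all 25 alternatives were the unfolded protein response (−0.41 to −0.06), granulocyte precursor markers (−0.94 to −0.29) and marrow macrophage markers (0.07 to 0.67). These alternatives too refit the same mice. The shallow EnzR EV replicate 1 limits genes under 1.65 CPM, and a difference that rests on it is less firm than one seen among the deeper libraries. In the low-Rn45s fit the EnzR EV group is 1 mouse, so its values have no spread of their own.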
